A study of Mus musculus with 18 samples.

Results

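Skin cells that carried complement C1q transcripts together with transcripts of Cd209f, Ccl24, Folr2 or Cd163 were taken from single-cell libraries of mouse skin. A cell was a member when it had at least 5 unique molecular identifiers (UMIs, each standing for 1 captured transcript molecule) of C1qa, C1qb and C1qc together and at least 2 of Cd209f, Ccl24, Folr2 and Cd163 together. In addition S100a8 and S100a9 had to stay under 2% of the cell's UMIs and Col1a1 and Col1a2 under 1%, with 0 UMIs of Cd3d, Cd3e and Cd3g. The members, chosen by these measured values, were 2036 cells among 47251 kept cells from 10 libraries. The values of the rule's own genes are therefore given below as a description, with no test.

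Macrophages that settle in the dermis along vessels and nerves take up debris, iron and spent proteins, and they call in other leukocytes with chemokines. Many of them carry the folate receptor beta (Folr2), the mannose receptor (Mrc1), the hemoglobin receptor Cd163 and C-type lectins of the Cd209 family, and they make the eosinophil attractant Ccl24. Monocytes, marked by Ly6c2 and Ccr2, enter injured skin from the blood and can turn into macrophages that carry C1q as well.

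The study compared skin that was being stretched with skin that was not, over the first days after surgery. All mice were cut in the back skin near the tail, and forceps opened a way below the skin as far as the neck. A hydrogel expander was placed there in the expanded arm, and control mice were stitched closed with none. Living cells of all kinds were sorted from the skin, and the mice of an arm and round were pooled in 1 tube, so the mice of a library share a reaction. Each arm had 5 libraries, from day 1 in sequencing rounds 1 and 2, day 2 in rounds 1 and 2, and day 4 in round 1. Strain, age and sex of the mice were not given in the sources used here. Values are listed below in that order for each arm.

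The libraries held 17726700 to 75470700 gene UMIs and 1927 to 8312 kept cells. In each library 8.60% to 24.4% of barcodes were over the mitochondrial limit. The median member had 8327.5, 4475, 5524, 7452 and 6820.5 UMIs in the control libraries and 11831, 6778.5, 14604.5, 15758 and 12798 in the expanded libraries, so expanded members were read more deeply in each pair. 0 member barcodes and 263 barcodes of kept cells occurred in more than 1 library.

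The name resident Cd209f Folr2 macrophage held better for the control than for the expanded members, though many control members also had no Cd209f UMI. Expression is given throughout as CPM, the usual depth-scaled unit, from the UMIs of a gene and all UMIs of a library's members. Cd209f stood at 412, 299, 719, 239 and 543 CPM in the control libraries and at 289, 117, 3.25, 200 and 0 CPM in the expanded libraries. In the expanded library of day 4, 0 of 65 members had a Cd209f UMI, which allows a share of up to 4.62% of cells with a UMI and does not limit the share that expresses the gene. The eosinophil chemokine Ccl24 stood at 758, 478, 1387, 358 and 854 CPM in control members and at 473, 396, 61.7, 180 and 66.6 CPM in expanded members. Folr2 ran from 305 to 465 CPM in the control libraries and reached 274, 267, 169, 269 and 122 CPM in the expanded ones. Cd163 overlapped between the arms, at 387 to 697 CPM in control and 354 to 848 CPM in expanded members. C1qa stood at 1938 to 2818 CPM in control members and at 2928, 2615, 656, 1631 and 1242 CPM in expanded members. The expanded members of days 2 and 4 were below every control library for Ccl24, Folr2, C1qa and Cd209f, and those of day 1 were closer to the control members. The expanded library of day 2, round 2, held 17 members and lay outside the gene tests, which took libraries with at least 20.

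To compare shares of cells across depths, each cell was thinned at random to 2000 UMIs. Cd209f was then detected in 38.3%, 31.3%, 54.2%, 23.0% and 41.4% of control members and in 23.1%, 7.14%, 5.13%, 11.8% and 0% of expanded members. Before thinning, the shares were 57.2%, 45.3%, 70.5%, 36.4% and 53.8% against 29.6%, 16.7%, 5%, 23.5% and 0%. T cells with under 5 C1q UMIs were thinned alike and had median depths of 3662 to 7145 UMIs before thinning. They had a Cd209f UMI in 0% to 0.327% of cells, a level that free RNA can give. Ccl24 was detected in 58.4%, 43.3%, 74.9%, 39.0% and 61.2% of control members and in 42.3%, 28.6%, 7.69%, 5.88% and 9.23% of expanded members. Both genes had lower shares in the expanded than in the control library of every pair. Folr2 was found in 41.1% to 54.2% of control members and in 17.9% to 37.2% of expanded members.

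**Figure D1:**
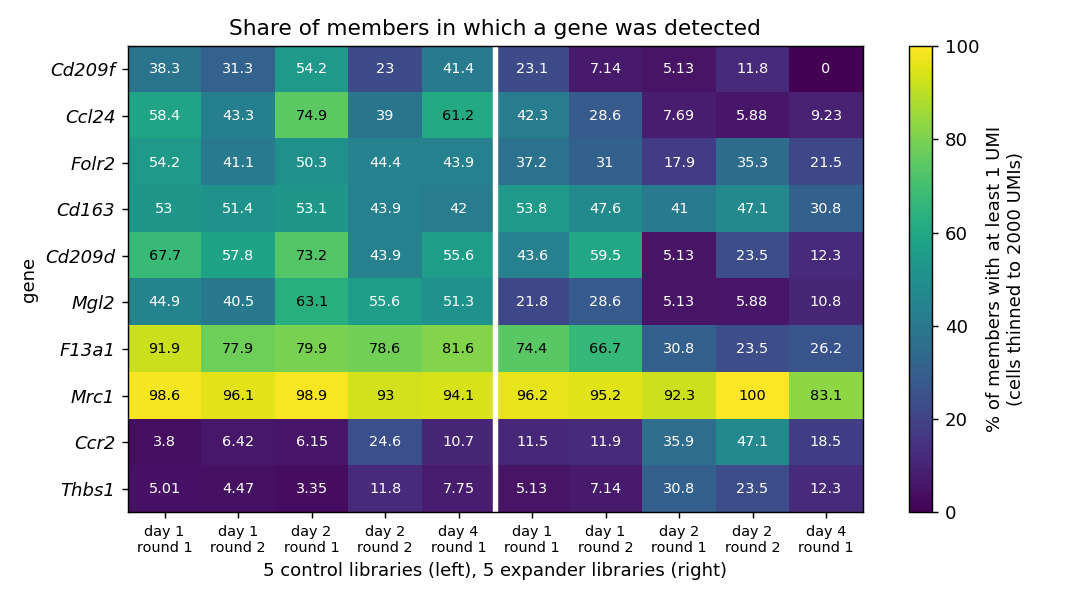
The colour of each field gives the percent of members with at least 1 UMI of a gene (rows) after thinning to 2000 UMIs, with the 5 control libraries at the left and the 5 expanded libraries at the right. Mrc1 stayed between 83.1% and 100% throughout, while Cd209f fell to 0% to 11.8% and F13a1 to 23.5% to 30.8% in the expanded libraries of days 2 and 4.

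Macrophage genes that the rule did not use differed in whether they split the libraries. Mrc1, the mannose receptor, was detected after thinning in 93.0% to 98.9% of control members and 83.1% to 100% of expanded members, against 0.806% to 4.32% of T cells. Cbr2, a carbonyl reductase of resident macrophages, was detected in 67.7%, 27.9%, 44.7%, 55.1% and 39.6% of control members and in 59.0%, 45.2%, 53.8%, 41.2% and 36.9% of expanded members, against 0% to 1.1% of T cells. Neither gene separated the arms. F13a1, the coagulation factor XIII A chain found in resident macrophages, was detected in 77.9% to 91.9% of control members and in 74.4%, 66.7%, 30.8%, 23.5% and 26.2% of expanded members. The lectin Cd209d was detected in 43.9% to 73.2% of control members and in 43.6%, 59.5%, 5.13%, 23.5% and 12.3% of expanded members. Lyve1 and Timd4, which mark other sets of resident macrophages, were rare everywhere, at 6.42% or less and 3.74% or less of the members of a library. The monocyte chemokine receptor Ccr2 was detected in 3.80%, 6.42%, 6.15%, 24.6% and 10.7% of control members and in 11.5%, 11.9%, 35.9%, 47.1% and 18.5% of expanded members. In T cells, which use Ccr2 themselves, the range was 12.6% to 22.6%.

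Markers of other cell types were summed over the members of each library. The 6 monocyte markers, among them Ly6c2, Ccr2, Plac8, Chil3 and Vcan, summed to 44.9, 66.3, 68.6, 427 and 145 CPM in control members and to 376, 141, 1198, 1668 and 428 CPM in expanded members. Any UMI of these 6 genes was present in 15.4%, 12.95%, 10.6%, 49.5% and 31.5% of control members and in 35.8%, 25%, 90%, 76.5% and 72.3% of expanded members. The expanded libraries of days 2 and 4 were the highest, and among control libraries round 2 of day 2 stood apart. Ly6c2 itself, the defining gene, was at 0 to 5.41 CPM in control members and at 1.83, 0, 141, 172 and 19.97 CPM in expanded members. The 6 dendritic cell markers summed to 268 to 482 CPM in control and 35.7 to 906 CPM in expanded members, of which Cd209a gave 244 to 450 CPM and 26.0 to 903 CPM. Fibroblast markers summed to 1362 to 3347 CPM in control members and to 60.1 to 1918 CPM in expanded members. T cell markers summed to 7 CPM or less, and neutrophil markers to 31.6 to 116 CPM. These sums were in part fixed by the rule. It held 3 of the 6 T cell markers at 0 UMIs and limited 2 of the 6 neutrophil and 2 of the 7 fibroblast markers. Keratinocyte markers gave 8.02 to 1155 CPM, with the highest value in the expanded library of day 1, round 1. Endothelial markers gave 7.44 to 34.4 CPM in control and 12.98 to 169 CPM in expanded members, and among them Pecam1, which some leukocytes also carry, was higher in expanded members (edgeR adjusted p = 0.0415). The part of these other-cell transcripts in the gene differences below was not tested, since too few expanded members of days 2 and 4 were free of monocyte markers for a fit.

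Members made up a larger share of the skin cells without an expander. They numbered 586, 386, 207, 206 and 400 in the control libraries, or 10.1%, 4.64%, 9.47%, 3.52% and 5.33% of kept cells. In the expanded libraries they numbered 81, 48, 40, 17 and 65, or 2.74%, 0.817%, 1.18%, 0.882% and 1.90%. The means were 6.61% ± 2.96 (SD, n = 5) and 1.504% ± 0.814 (SD, n = 5), and the ranges did not overlap. The control share was 3.67, 5.69, 8.04, 4.00 and 2.81 times the expanded share in the 5 pairs. Because the rule chose the cells by genes that differed between the arms, this share is a description and was not tested.

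Hashing antibodies mark the cells of 1 mouse with a DNA barcode. By mouse, the median share was lower in expanded skin, but the arms overlapped. The share ran from 1.17% to 17.7% of a mouse's cells with a median of 7.74% in 14 control mice. In 14 expanded mice it ran from 0% to 3.41% with a median of 1.41%, and 1 mouse had 0 members. In round 2 of days 1 and 2, the lowest control mice (1.17% and 1.99%) lay below the highest expanded mice (3.41% and 2.43%). Over the same libraries, cells with at least 2 UMIs of the monocyte gene Ly6c2 took up 0.240%, 0.277%, 0.229%, 0.958% and 0.533% of control cells and 1.08%, 1.46%, 13.4%, 8.82% and 5.90% of expanded cells. A larger number of incoming cells lowers the share of every other cell type, and the part of this in the member share was not tested.

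**Figure D2:**
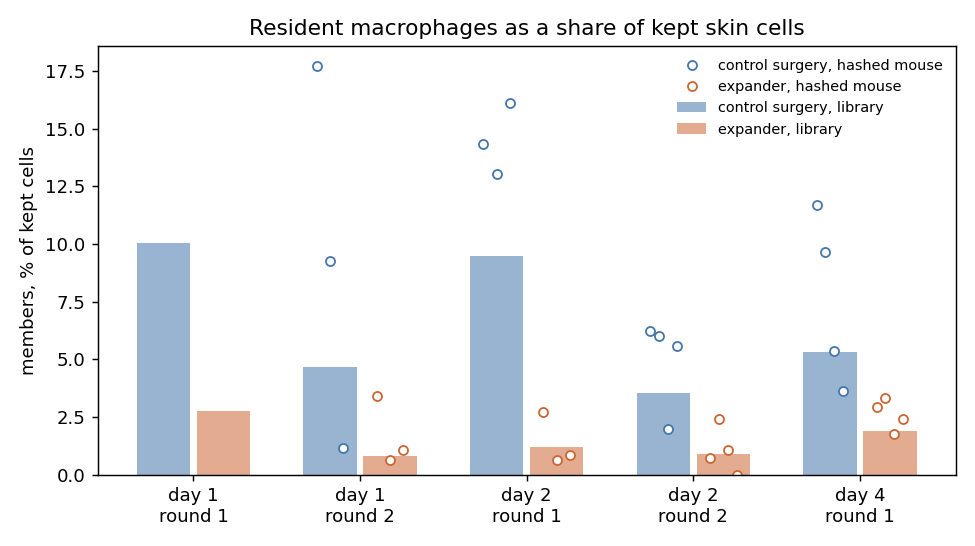
Bars show members as a percent of kept cells in each library and open circles the same percent in each hashed mouse, by day and round, for control and expander skin. Control bars run from 3.52% to 10.1% and expander bars from 0.817% to 2.74%; cells without a clear hashtag count in the bars only, and the first pair was not hashed.

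Among C1q cells alone, members were 91.6%, 69.9%, 81.5%, 55.5% and 62.6% in the control libraries and 72.3%, 50%, 38.1%, 36.2% and 34.0% in the expanded ones. The expanded value was lower in each pair, and the ranges overlapped. The mean share of C1q cells was 1.57 times as high in control as in expanded skin, against 4.39 times for the share of all kept cells. With the rule applied to cells thinned to 2000 UMIs, the latter ratio was 7.41. Cells with 1 UMI of the 4 resident genes, just outside, numbered 26, 58, 22, 43 and 67 in the control libraries and 9, 11, 16, 6 and 34 in the expanded ones. Cells with 2 UMIs, just inside, numbered 27, 53, 16, 32 and 40 against 4, 2, 9, 3 and 17. The collagen limit left out 65 cells of the control library of day 1, round 1, and 21 or fewer of every other library.

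Expanded members met the rule through fewer of its genes. All 4 resident genes were present in 37.5%, 15.8%, 37.7%, 16.0% and 23.3% of control members and in 18.5%, 4.17%, 0%, 5.88% and 0% of expanded members. A single gene carried the rule in 8.36%, 21.8%, 8.21%, 24.3% and 17.3% of control members and in 19.8%, 31.3%, 32.5%, 41.2% and 49.2% of expanded members. Of all Cd209f UMIs in a control library, 78.1% to 98.2% lay in members, a share that the rule itself favours. Folr2 UMIs lay in members to 75.6% to 96.3% in the control libraries and to 87.7%, 64.4%, 11.9%, 30.2% and 45.6% in the expanded libraries. Ccl24 UMIs lay in members to 45.2% to 94.2% in the control libraries. In the expanded libraries the Ccl24 shares were 92.0%, 45.7%, 2.41%, 6.50% and 32.6%. Low Ccl24 in expanded members therefore does not describe expanded skin as a whole.

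Control members differed among themselves by Cd209f. After thinning, 224, 121, 97, 46 and 156 control members had a Cd209f UMI and 355, 237, 82, 141 and 218 had none. Other lectin genes of the family went with it. Cd209d stood at 1799, 1417, 1500, 1870 and 1494 CPM in members with Cd209f and at 872, 570, 610, 546 and 422 CPM in members without it. Cd209b stood at 362 to 593 CPM with Cd209f and at 57.3 to 211 CPM without it. Cd209g stood at 293 to 567 CPM with it and at 42.6 to 141 CPM without it. In none of these 3 genes did the ranges over the 5 libraries overlap.

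Antigen presentation went the other way. Cd74, the invariant chain that guides MHC class II molecules, stood at 2040, 5612, 7062, 3087 and 7208 CPM in control members with Cd209f and at 5858, 9945, 14061, 8730 and 14633 CPM in those without. H2-Aa, a class II chain, stood at 663 to 3005 CPM with Cd209f and at 2637 to 6057 CPM without it, lower with Cd209f in 5 of 5 libraries. Ccr2 stood at 2.23, 8.26, 20.6, 21.7 and 3.21 CPM with Cd209f and at 53.5, 78.1, 79.3, 305 and 158 CPM without it. The fatty acid carrier Fabp5 was at 191 to 288 CPM with Cd209f and at 363 to 1677 CPM without it. Mrc1 stood at 3035 to 3837 CPM and at 2411 to 3259 CPM, so both sets of control members carried it. The split used a rule gene, and these values are a description with no test.

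**Figure D3:**
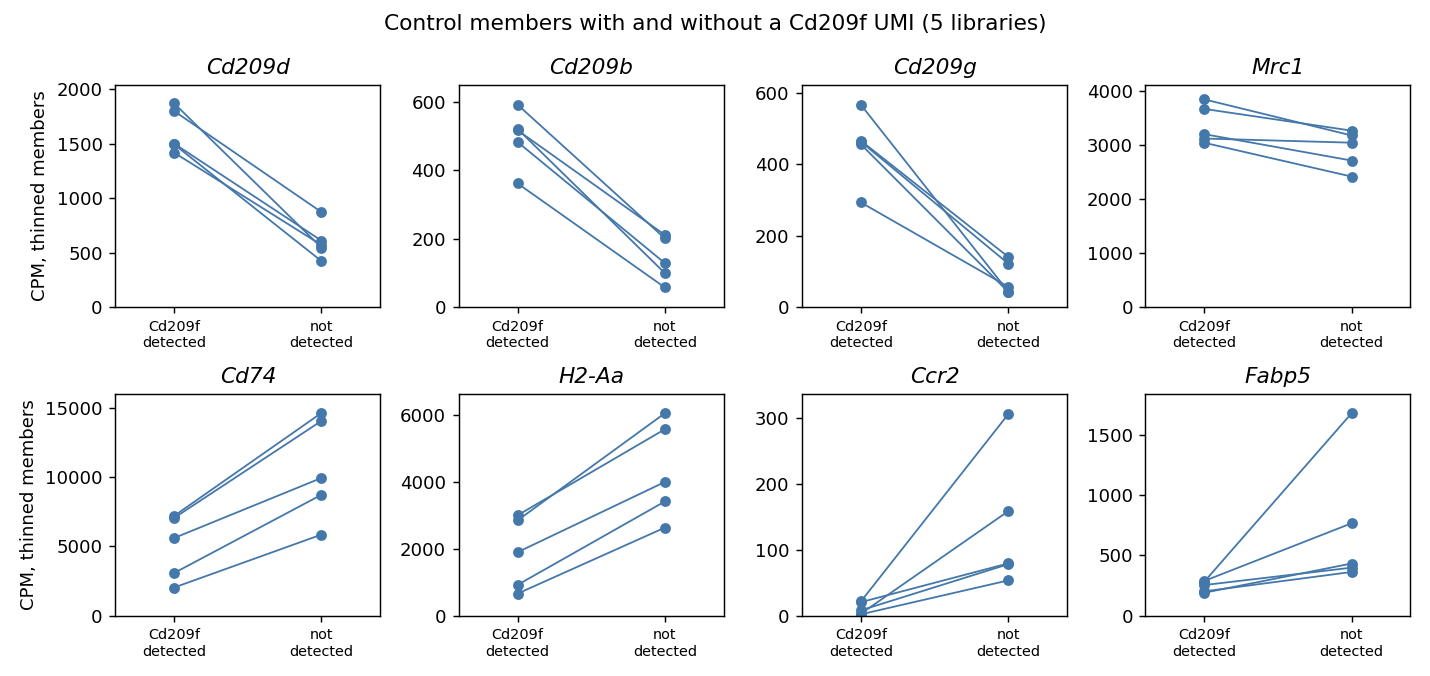
Each panel plots the CPM of a gene in thinned control members with a Cd209f UMI (left) and without one (right), and each line joins the 2 values of 1 of the 5 control libraries. Cd209d, Cd209b and Cd209g are higher at the left in every library, and Cd74, H2-Aa and Ccr2 are higher at the right.

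Gene expression in members was compared between arms on UMIs summed per library, with the 5 control and 4 expanded libraries that had at least 20 members, day as a covariate and the quasi-likelihood test of edgeR. Of 7894 genes tested, 358 were higher (4.54%) and 540 lower (6.84%) in expanded members at an adjusted p under 0.05. The sign was the same in all 4 pairs for 349 and 537 of them. The median log2 fold change over all genes tested was 0.0056. Libraries of a group are separate pools of mice, but 1 pool is 1 reaction, so p-values measure the spread between pools.

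These counts depended on single libraries. Without the expanded library of day 4, 45 genes were called, and without the expanded library of day 2, round 1, 143. Without the control library of day 4 the number was 111, and without the control library of day 2, round 2, it was 1376. When a day 1 library was left out it was 393 (control, round 1), 568 (expanded, round 1), 522 (control, round 2) or 386 (expanded, round 2). With members that had no Cd209f UMI after thinning, in both arms, 691 genes were called, of which 630 were among the 898. With the expanded libraries of days 2 and 4 left out, 1 gene was called from the 2 expanded libraries of day 1. The same 2 libraries were the only expanded ones left with 20 members when members with a UMI of the 6 monocyte markers were removed from both arms, and 92 genes were then called. A change within resident cells and an admixture of monocyte-derived cells on days 2 and 4 cannot be told apart in the differences below. Of the 69 genes named by rule for this comparison, 12 passed without each library in turn: Abca9, Cd300lb, F7, Fabp5, Gbp2b, Hspa1b, Msr1, Rcan1, Reps2, Retnla, Saa3 and Timp1.

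Over all genes tested, 6.84% fell and 4.54% rose, the shares to set beside each list count below. Of 32 measured genes of the resident macrophage list, 14 fell in expanded members, 0 rose and 18 did not pass, with a median log2 fold change of -1.24. Deeper cells can meet the rule's fixed limit of 2 UMIs at a lower level of its resident genes, and expanded members were deeper. With the rule applied to thinned counts, members numbered 100 to 409 in control and 6 to 49 in expanded libraries. That left 2 expanded libraries for a fit, which called 41 genes. The part of depth in the fall of this list was not tested. Of 13 macrophage markers outside the rule, 5 fell, 7 did not pass and 1, the Fc receptor Fcgr1, rose. Among those that fell were 3 receptors by which macrophages are commonly recognized. Csf1r, the receptor for the macrophage growth factor CSF1, stood at 669, 562, 677, 394 and 533 CPM in control members and at 328, 313, 250, 265 and 297 CPM in expanded members. It fell by 1.12 on the log2 scale (SE 0.22, edgeR adjusted p = 0.0136), and the arms did not overlap. Adgre1, which encodes the F4/80 antigen, stood at 244 to 400 CPM in control members and at 265, 194, 114, 176 and 95.4 CPM in expanded members (log2 change -1.36, SE 0.27, adjusted p = 0.0144). Mertk, a receptor for dying cells, stood at 58.3 to 71.9 CPM in control and 22.7 to 44.1 CPM in expanded members (log2 change -1.12, SE 0.20, adjusted p = 0.0114).

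Cd209b, a lectin of the same gene cluster as Cd209f, stood at 320, 229, 396, 176 and 181 CPM in control members and at 200, 70.7, 4.87, 120 and 3.33 CPM in expanded members. Its log2 change was -2.74 (SE 0.77, edgeR adjusted p = 0.0445), and the arms overlapped only in round 1 of day 1. F13a1 stood at 1109 to 1930 CPM in control members and at 1130, 737, 373, 317 and 194 CPM in expanded members, with adjusted p = 0.0193. Selenop, the carrier of selenium, had a mean of 4432 ± 1313 CPM (SD, n = 5) in control and 1738 ± 492 CPM (SD, n = 4) in expanded members. Also lower were the transporter Slco2b1, the leukotriene C4 synthase Ltc4s, and Gfra2, Colec12, Ninj1, Wwp1 and Gas6. Members of the list that did not pass included Mrc1 at -0.13 (adjusted p = 0.685) and Maf at 0.39. Cd209d had a log2 change of -1.48 (adjusted p = 0.202), with 24.3 to 1137 CPM over the expanded libraries. So the list did not move as 1 block.

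**Figure D4:**
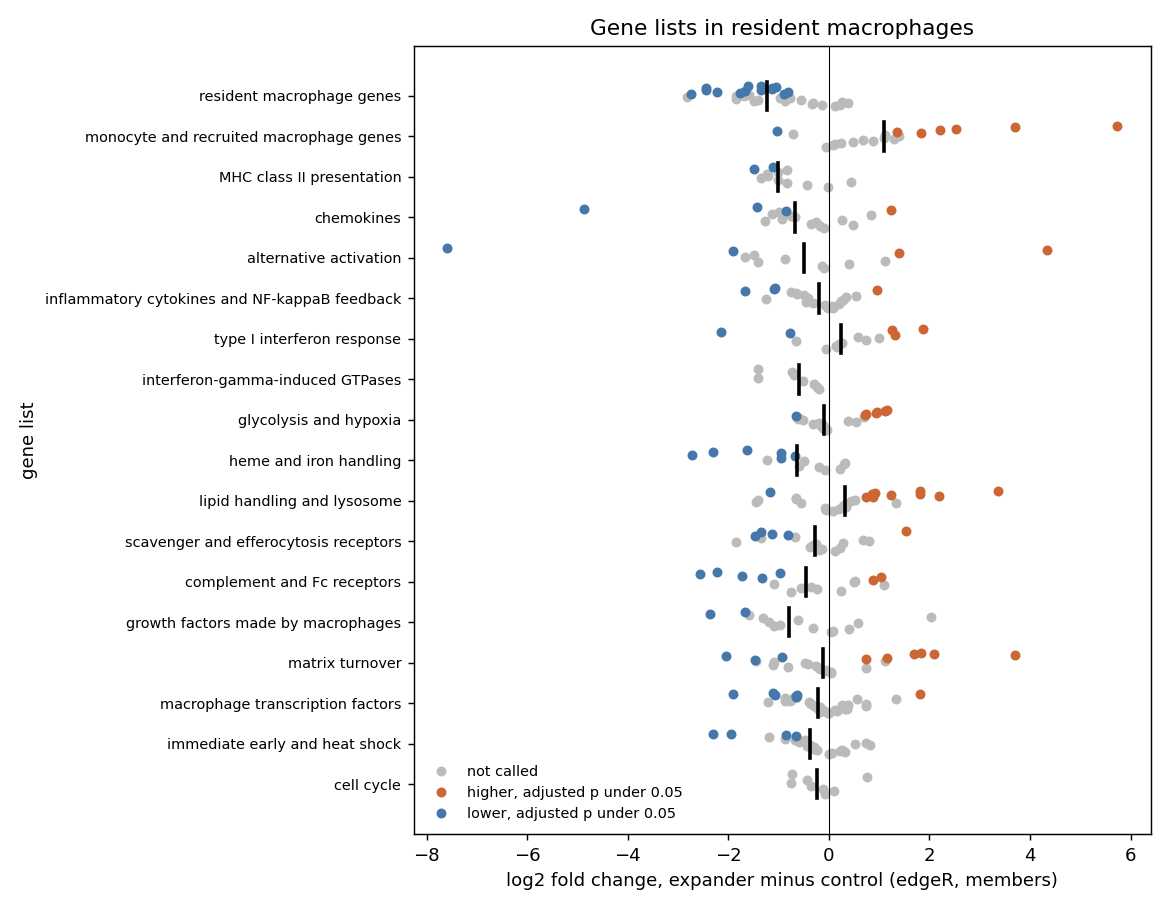
Each point is a tested gene at its log2 fold change in members, expander minus control, by gene list; blue and red mark genes past an edgeR adjusted p of 0.05, grey the others, and a bar the list's median. Called resident macrophage genes all lie below 0 (14 of 32), and called monocyte genes lie above 0 except Cd14 (6 of 7).

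The largest decrease was in Retnla, a secreted resistin-like protein that macrophages make under interleukin 4 and interleukin 13. It stood at 269, 307, 1280, 79.3 and 1029 CPM in control members and at 6.42, 6.14, 0, 0 and 0 CPM in expanded members. Every control library was thus above every expanded one by more than the spread within the expanded arm. Its fitted log2 change was -7.59 (SE 1.12, edgeR adjusted p = 0.00753), a value that depends on the prior count because 2 of the 4 tested expanded libraries were at 0. Over single mice with at least 10 members, Retnla ran from 0 to 3473 CPM with a median of 339 in 14 control mice, and from 0 to 8.88 CPM with a median of 0 in 8 expanded mice. Control mice thus varied widely and some had none.

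Of 12 measured genes of the alternative activation list, 2 rose and 2 fell, with a median of -0.50. The shares over all genes tested were 4.54% and 6.84%. Irf4, a transcription factor of this program, fell from 40.9 to 92.1 CPM in control members to between 0 and 33.8 CPM in expanded members (log2 change -1.91, SE 0.36, adjusted p = 0.012). Chil3 and Tgm2 rose. Chil3 is also a monocyte gene, and it stood at 1.33, 0, 0, 42.7 and 1.03 CPM in control and at 44.9, 6.14, 213, 561 and 131 CPM in expanded members. Arg1, the arginase of this program, was too low to test, at 0.947 CPM or less in control members and at 1.83, 0, 76.3, 0 and 72.1 CPM in expanded members.

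**Figure D5:**
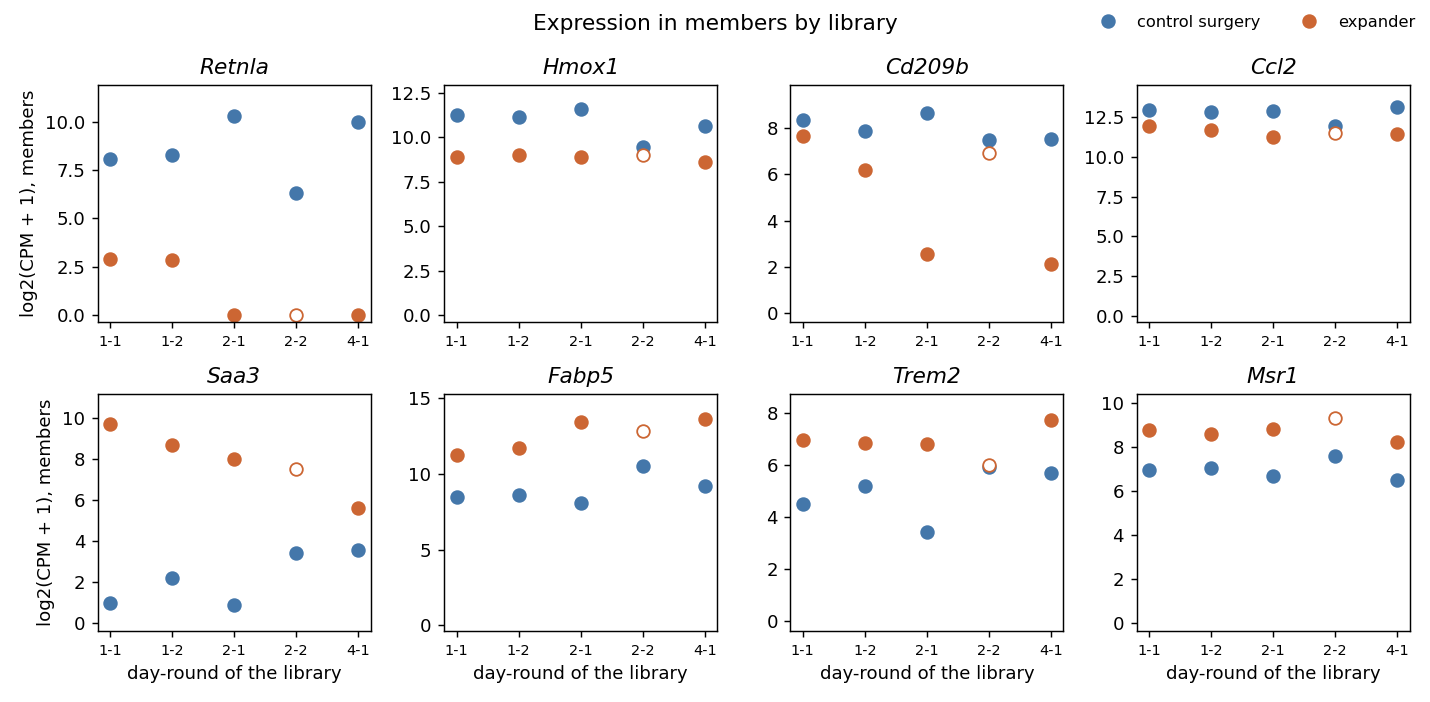
Points show log2(CPM + 1) of a gene in members for each library by day and round, in control and expander skin; open points mark the expander library with 17 members, which was outside the test. Retnla and Hmox1 are lower and Fabp5, Saa3 and Msr1 higher in the expander library of every pair.

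Of 14 measured genes for heme and iron handling, 6 fell, 0 rose and 8 did not pass, with a median of -0.63; over all genes tested, 6.84% fell. Hmox1, the enzyme that breaks heme down, stood at 2441, 2257, 3164, 703 and 1600 CPM in control members and at 474, 513, 471, 517 and 398 CPM in expanded members. The lowest control library lay above the highest expanded one, and the expanded libraries were close to each other. Hmox1 fell by 2.30 on the log2 scale (SE 0.39, edgeR adjusted p = 0.0107). Over single mice it ran from 216 to 3451 CPM in control and from 286 to 601 CPM in expanded mice, with medians of 1658 and 487. Blvrb, a biliverdin reductase that acts after heme oxygenase, stood at 327 to 444 CPM in control and 190 to 326 CPM in expanded members (log2 change -0.95, SE 0.18, adjusted p = 0.0122).

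Transferrin (Trf), Ncoa4, which sends ferritin to the lysosome, the metal importer Slc39a14 and ceruloplasmin (Cp) were the other 4 that fell. The ferritin chains Fth1 and Ftl1, at log2 changes of 0.22 (adjusted p = 0.461) and -0.07 (adjusted p = 0.825), did not pass. Srxn1, the sulfiredoxin that repairs oxidized peroxiredoxins, stood at 288, 317, 259, 63.7 and 198 CPM in control and at 27.5, 67.6, 29.2, 20.04 and 61.0 CPM in expanded members. It fell by 2.58 on the log2 scale (SE 0.46, adjusted p = 0.0114), with the control library of day 2, round 2, inside the expanded range.

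The 250 bases before the start of Retnla, Srxn1 and Cd209f are shown because transcripts of these genes were low in expanded members and the windows held a match to an AP-1 or STAT6 site; they come from RefSeq on GRCm38.p6, 5′ to 3′ on the gene's strand. Capitals mark matches to the letters TGANTCA (AP-1 site), TGANTCAGC (AP-1 site followed by GC, which holds an AP-1 site) and the STAT6 site, TTC and GAA with any 4 bases between, searched on both strands.
Retnla, chr16:48842359-48842608, + strand: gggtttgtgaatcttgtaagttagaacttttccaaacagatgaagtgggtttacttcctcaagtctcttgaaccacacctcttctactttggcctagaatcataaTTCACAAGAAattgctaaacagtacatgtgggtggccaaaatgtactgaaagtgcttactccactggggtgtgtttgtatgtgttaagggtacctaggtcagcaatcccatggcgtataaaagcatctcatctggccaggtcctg
Srxn1, chr2:152105274-152105523, + strand: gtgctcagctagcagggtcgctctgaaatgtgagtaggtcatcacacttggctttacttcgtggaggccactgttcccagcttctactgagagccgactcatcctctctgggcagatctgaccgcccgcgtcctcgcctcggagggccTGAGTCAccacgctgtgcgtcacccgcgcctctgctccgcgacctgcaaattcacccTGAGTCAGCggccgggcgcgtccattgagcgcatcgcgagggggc
Cd209f, chr8:4105765-4106014, - strand: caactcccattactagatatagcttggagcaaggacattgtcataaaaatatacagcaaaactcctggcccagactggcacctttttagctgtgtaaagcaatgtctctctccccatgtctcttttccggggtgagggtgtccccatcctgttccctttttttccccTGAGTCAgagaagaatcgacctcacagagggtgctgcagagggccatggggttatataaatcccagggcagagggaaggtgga

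The match before Retnla began at position -145, counted like the positions that follow from the RefSeq start of the gene. The spans of Retnla and Cd209f given further below come from another annotation and reach into these windows, so distances from those starts differ. The matches before Srxn1 began at -102 and -45, the latter followed by GC, and the match before Cd209f at -83. Over 32817 promoters of this length, 5.85% held the STAT6 site, 6.75% held TGANTCA and 1.02% held TGANTCAGC. Among genes of the table that fell, rose or were tested, TGANTCA was found in 6.21%, 3.97% and 4.38%, and the STAT6 site in 4.77%, 3.97% and 4.29%. The windows of Cd209b, Tnf and Saa3 were searched in the same way and held no match to these sites. The antioxidant response element (TGACNNNGC), found in 10.2% of promoters, matched once before Cd209b, and the NF-kappaB site, found in 17.6%, matched in 0 of these 6 windows. These are matches of letters, and no binding was measured.

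Chemokine genes fell in part. Of 17 measured, 3 fell and 1 rose, with a median of -0.67, while 6.84% of all genes tested fell and 4.54% rose. Ccl2, the main attractant of monocytes, stood at 7921, 7110, 7391, 3879 and 8775 CPM in control members and at 3827, 3241, 2390, 2946 and 2778 CPM in expanded members. It fell by 1.43 on the log2 scale (SE 0.25, edgeR adjusted p = 0.0112), and its neighbour Ccl7 fell by 0.84 (SE 0.24, adjusted p = 0.0441). The arms did not overlap for Ccl2. Cxcl9, an attractant of T cells, also fell, from 2.48 to 124 CPM in control members to 4.01 CPM or less in expanded members, with some overlap. Ccl6 rose, with 249 to 451 CPM in control members and 596, 541, 2226, 2048 and 489 CPM in expanded members (log2 change 1.23, SE 0.34, adjusted p = 0.04). Ccl8 and Pf4 did not pass, at -0.35 and 0.26.

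The inflammatory list held 22 measured genes, of which 3 fell and 1 rose, with a median of -0.20. Among all genes tested, 6.84% fell and 4.54% rose. The cytokine Tnf stood at 199 to 355 CPM in control and 101 to 228 CPM in expanded members (log2 change -1.08, SE 0.22, adjusted p = 0.0146). Il10, a cytokine that restrains inflammation, stood at 406, 321, 311, 101 and 274 CPM in control and at 73.4, 61.4, 232, 44.1 and 55.5 CPM in expanded members (log2 change -1.66, SE 0.48, adjusted p = 0.0491). Nfkb1 fell and Il18 rose. Il1b, at 57.8 to 812 CPM in control and 75.2 to 1108 CPM in expanded members, did not pass (log2 change -0.45, adjusted p = 0.683). The growth factors Bmp2 and Hbegf fell, 2 of 14 measured, with 0 that rose and a median of -0.79. Igf1 missed the threshold at -1.59 (adjusted p = 0.0508).

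Antigen presentation genes had a median of -1.002. Of 12 measured, 2 fell and 0 rose, while 6.84% of all genes tested fell and 4.54% rose. The class II chain H2-Eb1 stood at 1404, 2480, 794, 1095 and 2008 CPM in control members and at 916, 1103, 187, 970 and 974 CPM in expanded members (log2 change -1.49, SE 0.30, adjusted p = 0.0144). The costimulatory molecule Cd86 stood at 174 to 248 CPM and at 89.1 to 141 CPM, with no overlap (log2 change -1.12, SE 0.20, adjusted p = 0.0114). Cd74 and H2-Aa had adjusted p of 0.0953 and 0.0958 at changes of -1.22 and -1.35. Within control members these 2 genes were higher in cells without a Cd209f UMI, and the part of this in the difference between arms was not tested.

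Fabp5, which carries fatty acids inside the cell, was higher in expanded members. It stood at 358, 386, 269, 1437 and 595 CPM in control members and at 2373, 3238, 10834, 7183 and 12348 CPM in expanded members. Every expanded library was above every control library, and those of days 2 and 4 were the highest. Fabp5 rose by 3.36 on the log2 scale (SE 0.41, edgeR adjusted p = 0.00399). Over single mice it ran from 134 to 2743 CPM in control and from 2998 to 14340 CPM in expanded mice, which did not overlap either. All kept cells together had 84.4 to 431 CPM of Fabp5 in control and 252.5 to 2729 CPM in expanded skin, so the members were above the average cell of each library.

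The lipid and lysosome list held 28 measured genes, of which 9 rose and 1 fell, with a median of 0.32. Trem2, a receptor for lipids, stood at 21.6, 36.0, 9.91, 60.1 and 51.8 CPM in control members and at 126, 117, 114, 64.1 and 213 CPM in expanded members (log2 change 1.82, SE 0.35, adjusted p = 0.013). Fabp4, the sterol sensor Nr1h3, galectin 3 (Lgals3) and the lysosomal proteases Ctsl, Ctsd and Lgmn were among the others that rose. Lgals3 had a mean of 1532 ± 417 CPM (SD, n = 5) in control and 4194 ± 1747 CPM (SD, n = 4) in expanded members. Ctsl had means of 1275 ± 338 and 2700 ± 275 CPM. The cholesterol exporter Abca1 fell, from a mean of 611 ± 180 to 306 ± 61.8 CPM. Gpnmb and Apoe did not pass, at 1.34 and -1.41.

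The scavenger receptor Msr1 rose by 1.53 on the log2 scale (SE 0.18, edgeR adjusted p = 0.00395). It stood at 124, 133, 102, 193 and 90.5 CPM in control members and at 443, 384, 449, 641 and 303 CPM in expanded members, with no overlap. It was the 1 gene that rose among 18 measured scavenger and dying-cell receptor genes, of which 4 fell, with a median of -0.28. The 4 were Mertk, Colec12 and the bridging proteins Gas6 and Pros1, which link dying cells to Mertk. A receptor for modified lipoproteins was thus higher, while the Mertk receptor and the bridging proteins Gas6 and Pros1 were lower.

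Of 19 measured monocyte and recruited macrophage genes, 6 rose, 1 fell and 12 did not pass, with a median of 1.11; over all genes tested, 4.54% rose. Saa3, an acute phase protein, stood at 0.947, 3.60, 0.826, 9.62 and 11.0 CPM in control members and at 838, 406, 260, 184 and 47.7 CPM in expanded members. It rose by 5.73 on the log2 scale (SE 0.90, edgeR adjusted p = 0.00852), and its expanded values were highest on day 1. All kept cells had 10.6 to 211 CPM of Saa3 in control and 297 to 589 CPM in expanded skin; its part in the members' value was not tested.

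Osteopontin (Spp1), the matrix proteoglycan Vcan, Ms4a4c, the coagulation factor F10 and Ccr2 were the other 5 that rose. Ccr2 stood at 24.8, 51.9, 50.4, 249 and 90.5 CPM in control members and at 138, 89.1, 531, 401 and 162 CPM in expanded members (log2 change 1.36, SE 0.38, adjusted p = 0.0436). Cd14, a receptor for bacterial lipopolysaccharide, fell from a mean of 1286 ± 269 CPM to 743 ± 333 CPM. For this list the summed monocyte markers given above moved with the result, and their part in it was not tested.

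Of 24 measured matrix genes, 6 rose and 3 fell, with a median of -0.12. Timp1, an inhibitor of matrix proteases, stood at 46.8, 36.0, 17.4, 36.1 and 34.6 CPM in control and at 166, 151, 140, 96.2 and 102 CPM in expanded members (log2 change 1.83, SE 0.21, adjusted p = 0.00395). The membrane protease Mmp14 had means of 41.1 ± 14.99 and 148 ± 62.5 CPM and rose by 1.70. The protease Mmp19 fell, from 433 to 1951 CPM in control members to 210 to 418 CPM in expanded members. Spp1, Mmp27, Adam8 and Tgfbi rose, and Mmp2 and the hyaluronan receptor Cd44 fell.

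Among glycolysis and hypoxia genes, 6 of 21 measured rose and 1 fell, with a median of -0.09. The 6 were Eno1, Mif, Pkm, Gapdh, Tpi1 and Ldha, most of them enzymes of lower glycolysis, and the 1 that fell was Pfkfb3. Pkm, the pyruvate kinase, stood at 222 to 314 CPM in control and 460 to 725 CPM in expanded members (log2 change 0.97, SE 0.19, adjusted p = 0.013). The glucose carrier Slc2a1 (log2 change -0.04, adjusted p = 0.95) and the oxygen-sensing factor Hif1a (-0.10, adjusted p = 0.798) did not pass.

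Of 16 measured complement and Fc receptor genes, 5 fell and 2 rose, with a median of -0.45. Those that fell included C4b, Cfb and the anaphylatoxin receptors C5ar1 and C3ar1, and the Fc receptors Fcgr1 and Fcgr2b rose. C4b stood at 220, 150, 237, 76.9 and 218 CPM in control and at 118, 43.0, 11.4, 12.0 and 5.55 CPM in expanded members. All kept cells together had 144 to 348 CPM of C4b in control and 28.4 to 112 CPM in expanded skin, so a level like that of the members was present in the skin as a whole. Col3a1, a fibroblast collagen outside the rule, likewise fell in members, by 2.29 on the log2 scale (adjusted p = 0.014), while all kept cells had 5931 to 20903 CPM of it in control and 1123 to 5737 CPM in expanded skin. The part of free fibroblast RNA in the C4b, Apod and Col3a1 values was not tested.

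Interferon genes moved in both directions. Of 14 measured genes of the type I response, 3 rose (Irf7, Rtp4 and Zbp1) and 2 fell (Oasl1 and Ifi204), with a median of 0.24. The shares over all genes tested were 4.54% and 6.84%. Among 8 measured GTPases induced by interferon gamma, 0 rose and 0 fell, with a median of -0.60. A further GTPase outside the lists, Gbp2b, fell from 37.1, 43.7, 81.8, 126 and 151 CPM in control members to 7.34, 3.07, 0, 8.02 and 8.87 CPM in expanded members (log2 change -4.04, SE 0.47, adjusted p = 0.00395).

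Of 36 measured transcription factors of macrophages, 6 fell and 1 rose, with a median of -0.21. Among all genes tested, 6.84% fell and 4.54% rose. Cebpb stood at 1645 to 2659 CPM in control and 597 to 1614 CPM in expanded members, and Mef2c at 126 to 176 CPM and 66.6 to 114 CPM, with no overlap for either. Irf4, Junb, Irf5 and Zeb2 also fell, and Nr1h3 rose. In the immediate early and heat shock list, which responds to tissue digestion, 4 of 25 fell and 0 rose, with a median of -0.38. The heat shock gene Hspa1b stood at 399, 271, 354, 409 and 287 CPM in control members and at 106, 160, 64.9, 76.2 and 24.4 CPM in expanded members (log2 change -2.31, SE 0.36, adjusted p = 0.00852). Hspa1a, Jund and Junb were the other 3 that fell, while Fos, Jun, Egr1 and Atf3 did not pass.

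Outside the lists, the genes with the largest changes were of mixed function. Abca9, a lipid transporter of the ABC family, stood at 212, 164, 201, 160 and 197 CPM in control and at 54.1, 21.5, 11.4, 24.1 and 32.2 CPM in expanded members (log2 change -2.82, SE 0.32, adjusted p = 0.00395). Rcan1, an inhibitor of the phosphatase calcineurin, stood at 171 to 667 CPM in control and 16.0 to 109 CPM in expanded members. The myeloid receptor gene Cd300lb, Reps2, Chp2 and Sema4b fell as well, and Apod fell with overlap between the arms. F7, coagulation factor VII, stood at 2.48 to 8.92 CPM in control members and at 15.6, 36.9, 29.2, 20.04 and 150 CPM in expanded members (log2 change 3.14, SE 0.37, adjusted p = 0.00395). Cacna1d and Syngr1 rose, with the expanded above the control libraries for both.

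The annotation of mouse build GRCm38 places Retnla at chr16:48842551-48844461, Saa3 at chr7:46711998-46715700 and Fabp5 at chr3:10012548-10016607. Hmox1 lies at chr8:75093621-75100589, Msr1 at chr8:39581685-39642673 and Cd209f at chr8:4102787-4105835, and Cd209b at chr8:3917655-3926844. Trem2 lies at chr17:48346401-48354147, Ccl2 at chr11:82035571-82037453, Abca9 at chr11:110100749-110168196 and Spp1 at chr5:104435118-104441050. Each span covers exons and introns, and the counts do not tell isoforms apart.

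Whether the expander effect in members changed with time was tested as an interaction. Of 7894 genes, 0 (0%) passed in edgeR for day 2 against day 1, with 563 at an unadjusted p under 0.05 and a lowest adjusted p of 0.0555. DESeq2 called 26. For day 4 against day 1, 0 (0%) passed, with 322 at an unadjusted p under 0.05 and 11 called by DESeq2. When each pair of libraries was a replicate block, 208 and 102 genes passed. On simulated counts of this size, 1% of genes with an added log2 difference of 2 were recovered in either test, so this design could not detect most differences between days. The lower levels of Cd209f, C1qa and Ccl24 on days 2 and 4 given above concern the rule's genes and were not tested.

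Members were then set against the closest cells in the series, 971 cells that met every part of the rule except that the 4 resident genes had under 2 UMIs. The difference in expander effect between the 2 classes was tested with the library as a block. Of 8230 genes, 8 had a higher (0.0972%) and 15 a lower (0.182%) log2 fold change in members at an edgeR adjusted p under 0.05. Fabp5 rose more in members, by 1.78 (SE 0.31, adjusted p = 0.0369): in the other C1q cells it stood at 722, 582, 205, 1116 and 977 CPM in control and at 1023, 1166, 2952, 2017 and 6805 CPM in expanded skin. F7 and Fabp4 had differences of 3.13 and 2.91. In members F7 rose by 3.14. Fabp4 rose there by 2.20, less than its difference between the classes, and its arms overlapped. Lyz1 had a difference of 3.74, since it went from 641 ± 241 CPM (SD, n = 5) to 56.9 ± 55.1 CPM (SD, n = 4) in the other C1q cells and was at 227 ± 135 and 185 ± 123 CPM in members. Ccl17 and Polr2l, at 3.49 and 1.67, completed the 6 named on that side.

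On the other side, Ltc4s was lower in expanded members and higher in the other expanded C1q cells. Ltc4s, the leukotriene C4 synthase, stood there at 0, 6.19, 10.8, 31.2 and 5.88 CPM in control and at 278, 357, 204, 243 and 46.5 CPM in expanded skin. In members it fell from 18.8 ± 10.1 to 3.20 ± 1.19 CPM, and the difference was -6.36 (SE 0.68, adjusted p = 0.00144). Epcam, an adhesion molecule of epithelia and of Langerhans cells, stood at 3.60 to 99.0 CPM in the other control C1q cells and at 277 to 823 CPM in the expanded ones, with a difference of -3.85. Cd207, the langerin of Langerhans cells, averaged 111 ± 105 CPM and 468 ± 363 CPM there, against 14.7 ± 12.8 and 2.68 ± 4.22 CPM in members. Tbc1d4, Ptgs1, Apod and Igfbp3 had differences of -3.94, -5.02, -4.32 and -6.95. In the tested members Ptgs1 had 27 control and 2 expanded UMIs, and Igfbp3 had 220 and 3. The size of both differences therefore rests on very few counts. The part of a different cell makeup of the other C1q cells in these values was not tested.

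These 23 calls also depended on single libraries. The number was 1 without the control library of day 4 or the expanded library of day 2, round 1, and 4 without the expanded library of day 1, round 2, or the control library of day 2, round 1. In round 1 of day 1, leaving out the control library gave 6 and leaving out the expanded one 38. The number was 54 without the expanded library of day 4 or the control library of day 2, round 2. Ltc4s was called in each of these fits. Resident macrophage genes gave 1 lower call among 32 measured, with a median difference of 0.05 against 0.04 over all genes.

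Cell cycle transcripts in members were scored as the share of cells with at least 2 UMIs of a 29-gene list after thinning to 2000 UMIs. The share was 21.9%, 15.4%, 21.2%, 6.42% and 11.0% in the control libraries and 28.2%, 11.9%, 23.1% and 20% in the tested expanded ones, with 17.6% in the library of 17 members. The means were 15.2% ± 6.65 (SD, n = 5) and 20.8% ± 6.83 (SD, n = 4), and the ranges overlapped. The difference of 5.62 percentage points had p = 0.246 in an exact two-sided permutation test over 126 arrangements, which cannot go below 0.00794. Mki67, a marker of dividing cells, stood at 21.5 to 49.4 CPM in control members and at 12.8, 9.22, 87.6, 32.1 and 176 CPM in expanded members (log2 change 0.76, edgeR adjusted p = 0.263). Of the 8 measured genes of the cell cycle list, 0 rose and 0 fell, with a median of -0.23. A difference in dividing members was not detectable at this depth and number of libraries.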

How the data were processed

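Skin of 5 control and 5 expanded pools of mice was read by droplet-based 3′ mRNA sequencing (18 samples: 10 mRNA libraries and 8 hashing samples). From the hashing samples only the list that ties each hashtag to a mouse was used. The antibody counts lie in the mRNA matrices. The deposited matrices hold raw UMI counts of 32285 genes in each barcode; the authors ran Cell Ranger 6.1.2 with build mm10, per the submitters' processing notes. A barcode was kept if it had 200 genes and 500 UMIs or more, with mitochondrial UMIs of 10% or less. The members, gene lists and tests were chosen with earlier results of these data known.

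UMIs of members were summed per library with at least 20 members. After filterByExpr and TMM scaling, the sums were tested with edgeR 4.0.16 (quasi-likelihood, Benjamini-Hochberg adjustment, threshold 0.05) in R 4.3.3, with DESeq2 1.42.0 as an alternative. Rule genes and mitochondrial genes were kept out of the tests. Cells were thinned to 2000 UMIs with a fixed seed (Python 3.11.15, numpy 2.4.6, scipy 1.17.1). Mice were assigned where the leading hashtag had at least 10 counts and 3 times the next. Doublets were called with Scrublet in scanpy 1.11.5, which marked 0.0584% to 2.97% of a library's kept cells, and were removed in an alternative only.

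T cells had at least 3 UMIs of Cd3d, Cd3e and Cd3g; this gate also held collagen-rich cells. Gene names follow the files; positions come from the GENCODE vM21 annotation and promoters from RefSeq. For the main comparison the text names the 12 genes with the largest change in each direction that passed, had the same sign in every pair and reached 50 CPM in an arm, and up to 4 passing members of each gene list. It names up to 6 per direction for the class comparison. Other named genes were chosen for their function after their values were seen. Day and round pair the libraries, since rounds are sequencing batches per the labels; over 7894 genes the round difference correlated at r = 0.229 between arms on day 1. On simulated counts, 97% of genes changed by log2 2 and 32% of those changed by log2 1 were recovered for the main comparison, and 84% and 30% for the class comparison. Floors of 3 counts and intervals cover counting error only. A few items of the gene lists are not reported here by name.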

Additional observations from a re-analysis of the deposited data

Results flagged for a closer look

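In groups of 4 or 5 libraries, 14 of 156 groups had 1 library far from the others; chance flags about 1 in 20 groups. The control library of day 2, round 2, was the highest of its arm for 6 genes of members. There Chil3 was at 42.7 CPM (next 1.33), Fabp5 at 1437 CPM (next 595) and Vcan at 62.5 CPM (next 17.1). Ms4a4c was at 76.9 CPM (next 22.3), Eno1 at 68.5 CPM (next 33.9) and Gapdh at 662 CPM (next 389). In the same library the 6 monocyte markers summed to 427 CPM, against 145 CPM or less in the other control libraries; their part in these values was not tested. The control library of day 2, round 1, had Ltc4s at 36.4 CPM (next 16.8).

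In the expanded arm the 4 libraries with at least 20 members were compared, without day 2, round 2. On day 4, F7 was at 150 CPM (next 36.9), Trem2 at 213 CPM (next 126) and Blvrb at 326 CPM (next 202). On day 2, round 1, Ccl6 was at 2226 CPM (next 596, with 2048 CPM in the library left out) and Il10 at 232 CPM (next 73.4). On day 1, Sema4b was at 12.3 CPM in round 2 (next 6.49) and Apod at 56.9 CPM in round 1 (next 11.1).

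The expander effect differed between members and the other C1q cells for 12 named genes, by the edgeR test of that difference. The log2 differences were 3.74 for Lyz1, 3.49 for Ccl17, 3.13 for F7, 2.91 for Fabp4, 1.78 for Fabp5 and 1.67 for Polr2l. On the other side they were -6.95 for Igfbp3, -6.36 for Ltc4s, -5.02 for Ptgs1, -4.32 for Apod, -3.94 for Tbc1d4 and -3.85 for Epcam. Igfbp3 and Ptgs1 had 3 and 2 UMIs in the tested expanded members.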

How the results depend on the processing

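The 898 calls of the expander effect became 1485 with no filter on low counts, 467 with cells thinned to 2000 UMIs (361 shared), 1643 with counts summed per mouse (832 higher, 811 lower) and 41 with the rule applied to thinned counts (2 expanded libraries). Alternatives chosen after seeing the data gave 92 with members free of monocyte markers (2 expanded libraries, both of day 1), 90 without both libraries of day 4 and 1 without the expanded libraries of days 2 and 4. Leaving out 1 library gave 45 to 1376.

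For day 2 against day 1, where 0 genes passed, the number was 26 with DESeq2, 177 with no filter, 1 with thinned cells, 4 without doublets, 13 with at least 4 UMIs of the resident genes and 25 per mouse, and 0 to 3 without 1 library. For day 4 against day 1 it was 11 with DESeq2, 107 with no filter, 2 with at least 4 UMIs and 13 per mouse, and 0 to 1 without 1 library. With the pair of libraries as a replicate block, 1322, 208 and 102 genes passed in the 3 tests.

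The 23 class differences became 78 with DESeq2, 318 with no filter, 64 without doublets, 38 with at least 40 members, 55 per mouse and 77 with at least 10 members (chosen after seeing the data), and 1 to 54 without 1 library. The causes of these shifts were not tested.

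The share with cell cycle transcripts differed by -1.35 points at 1000 UMIs (reversed), -0.0253 with at least 3 UMIs (reversed) and 28.9 without thinning (exact permutation p = 0.0238), where expanded members were deeper. It was 3.42 in the paired permutation and 3.15 to 8.58 without 1 library. The member share ratio of 4.39 became 7.41 with the rule on thinned counts and 1.57 among C1q cells.

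Of single genes, Apod reversed to 2.34 (expander effect) and 3.16 (class difference) and Polr2l to -1.55 with the rule on thinned counts. The class difference of Ccl17 reversed to -1.55 per mouse and -1.61 without the expanded library of day 4 (range without 1 library -1.61 to 3.71), and -1.56 without the expanded libraries of days 2 and 4. On simulated counts both day comparisons recovered 1% of log2 2 differences, with 1 tested expanded library on each later day. Not run: the thinned rule for both day comparisons, and leave-outs that emptied a day of an arm.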
